A study of Mus musculus with 6 samples.

Results

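The 39 genes described here encode the kinases that drive cells into mitosis, the spindle assembly checkpoint, the centromere and outer kinetochore, the spindle motors, the cytokinesis machinery and the proteins that trigger anaphase. They are a list of names grouped by role, drawn up with earlier results of these data known, and were found by mapping the Ensembl identifiers of the expression tables to GENCODE M21 symbols. All 39 were present among the 56689 identifiers listed. They were divided by role into 8 classes of 3 to 7 genes.

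Cells enter mitosis when cyclin B binds CDK1 and CDC25 phosphatases remove the inhibitory phosphates from the kinase. Kinetochores, built on nucleosomes that hold the histone H3 variant CENP-A, then attach chromosomes to spindle microtubules, and the checkpoint holds back the anaphase-promoting complex (APC/C) until each kinetochore is attached. Active APC/C with its activator CDC20 marks securin and cyclin B for destruction, separase cuts cohesin, and the central spindle directs cytokinesis. Transcription of many of these genes peaks in G2 and mitosis and runs through a promoter element called the cell cycle genes homology region (CHR), which the MuvB complex reads with B-MYB and FOXM1, often beside CCAAT boxes bound by NF-Y. Mouse embryonic stem cells divide rapidly with a short G1, and genes of this kind are abundant in them.

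The series compared messenger RNA of Max-/- mouse embryonic stem cells, labelled Max-KO, with that of wild-type cells, labelled WT, in 3 libraries each, all of strain C57BL/6. Max is the partner with which MYC proteins bind DNA at E-boxes, and it also belongs to a Polycomb repressor, PRC1.6. Total RNA was taken with Trizol, and expression is given in FPKM, a fragment count divided by the length of the transcript and by the total of the library. The labels tell neither how the Max-/- line was made and whether it is 1 clone nor what the culture medium was. They do not say whether libraries of 1 genotype were separate cultures, and the p-values below speak of the spread among these libraries alone.

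Summed FPKM ran from 645169 to 658361 in Max-KO libraries and from 743406 to 774405 in WT libraries. From the steps between low values, depth was estimated at 21.1 to 28.6 M fragments per library, so that 1 FPKM in a transcript of 2000 bases stood for about 42.2 to 57.2 fragments. Libraries of the same group correlated at 0.978 to 0.985 across genes on the log2 scale, and a Max-KO with a WT library at 0.891 to 0.909. Max itself averaged 39.6 ± 3.81 FPKM in Max-KO and 44.7 ± 4.78 FPKM in WT libraries (SD, n = 3 each) with overlapping groups, and a level over the whole gene does not check the genotype. The 8 embryonic stem cell markers summed to 2907 to 2990 FPKM in Max-KO and 2540 to 2657 FPKM in WT libraries, with 4 higher and 2, Utf1 and Fgf4, lower. Of 8 fibroblast markers 6 were under 1 FPKM in each of the 6 libraries, and the sums were 8.11 to 10.3 FPKM in Max-KO and 8.11 to 8.38 FPKM in WT libraries. Primitive endoderm markers summed to 5.71 to 10.2 FPKM in Max-KO and 1.97 to 2.42 FPKM in WT libraries, with 4 of 7 higher, and trophoblast markers to 15.7 to 23.6 FPKM in Max-KO and 8.5 to 8.99 FPKM in WT libraries, with 4 of 7 higher, 1 lower and Tpbpa at 0. Of these 8 higher calls, Gata4, Sox17, Pdgfra, Elf5 and Gata3 averaged under 1 FPKM in WT and passed the filter through Max-KO alone, which fixed their direction, while Dab2, Eomes and Hand1 averaged above 1 FPKM in both groups. The part of these cells in the values of the mitotic genes was not tested.

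The mitotic genes did not move as 1 block. Of the 18 genes of mitotic entry, the kinases, the passenger complex and anaphase onset, 12 were lower in Max-KO libraries and 1 higher. Of the 16 centromere, outer kinetochore, motor and cytokinesis genes 5 were higher and 1 lower as deposited, but 2 were higher and 5 lower under median-ratio scaling and 12 higher and none lower after rescaling to TPM. Of the 5 checkpoint genes, which are in neither set, 1 was higher and 1 lower. The classes were put together in this way after the values were seen. Of the 39 genes, all of which passed the filter of a mean of 1 FPKM in at least 1 group, 14 were lower (35.9%) and 7 higher (17.9%) at an adjusted p under 0.05 in limma on log2(FPKM + 1). The other 18 were not called. Over all 14661 genes tested, 23.2% were lower and 43.0% higher, 66.2% together. As deposited, a smaller share of the mitotic genes was therefore higher and a larger share lower than among the genes at large. Max-KO and WT values did not overlap in 25 of the 39 (64.1%), against 72.0% of all genes. Together the 39 summed to 3147 ± 48.7 FPKM in Max-KO and 3625 ± 16.8 FPKM in WT libraries (SD, n = 3 each). As a share of all FPKM in a library, the groups overlapped. The share was 0.479%, 0.489% and 0.481% in Max-KO libraries, against 0.489%, 0.485% and 0.466% in WT libraries. The class sums below are likewise as deposited, with the FPKM of all genes summing to less in each Max-KO than in any WT library.

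The median log2 difference of the 39, Max-KO minus WT, was −0.03 and that of all genes 0.21. The median of all genes was 0.05 once libraries were scaled by median ratios, 0.41 on the TPM scale and −0.02 with quantiles made equal, so small differences depend on the scaling. The median of the 39 was −0.20, 0.19 and −0.01 in the same order, so with equal quantiles it was not below that of all genes. With equal quantiles 14 members were lower and 7 higher, as deposited, but 33.0% of all genes were lower and 28.8% higher. The share of lower calls was then near that of all genes. Among the calls over all genes, 64.9% were higher as deposited, 52.6% with median ratios, 76.9% on the TPM scale and 46.7% with equal quantiles. Under all 4 scalings 9 members were called lower, Ccnb1, Cdk1, Cdc25b, Plk1, Aurka, Aurkb, Incenp, Cdc20 and Ube2c, and 2 were called higher, Kif4 and Ect2. No member called as deposited was called in the opposite direction under any alternative. In bulk RNA, a smaller share of cells in G2 and mitosis and less RNA of these genes per cell cannot be told apart.

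**Figure D1:**
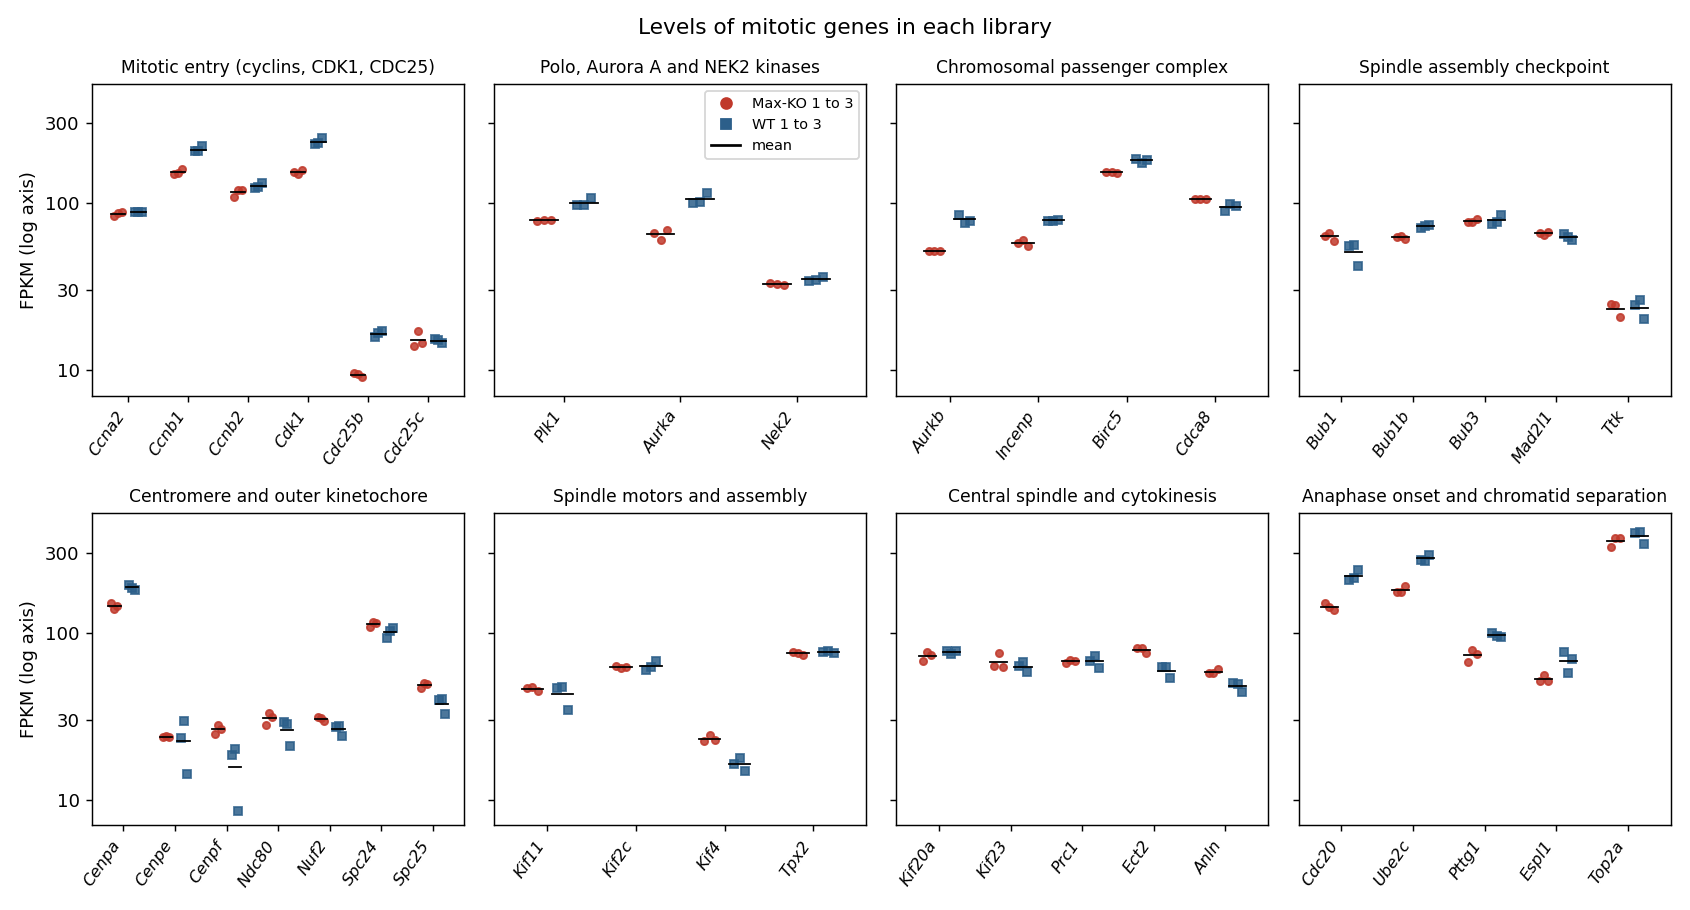
FPKM (log axis) of each of the 39 mitotic genes in the 3 Max-KO libraries (red circles) and the 3 WT libraries (blue squares), grouped by role, with black lines at the means. Cdk1, Aurka, Aurkb, Cdc20 and Ube2c lie lower in Max-KO with no overlap, Kif4 and Ect2 lie higher with no overlap, and WT 3 is the low point of Cenpf and Cenpe.

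**Figure D2:**
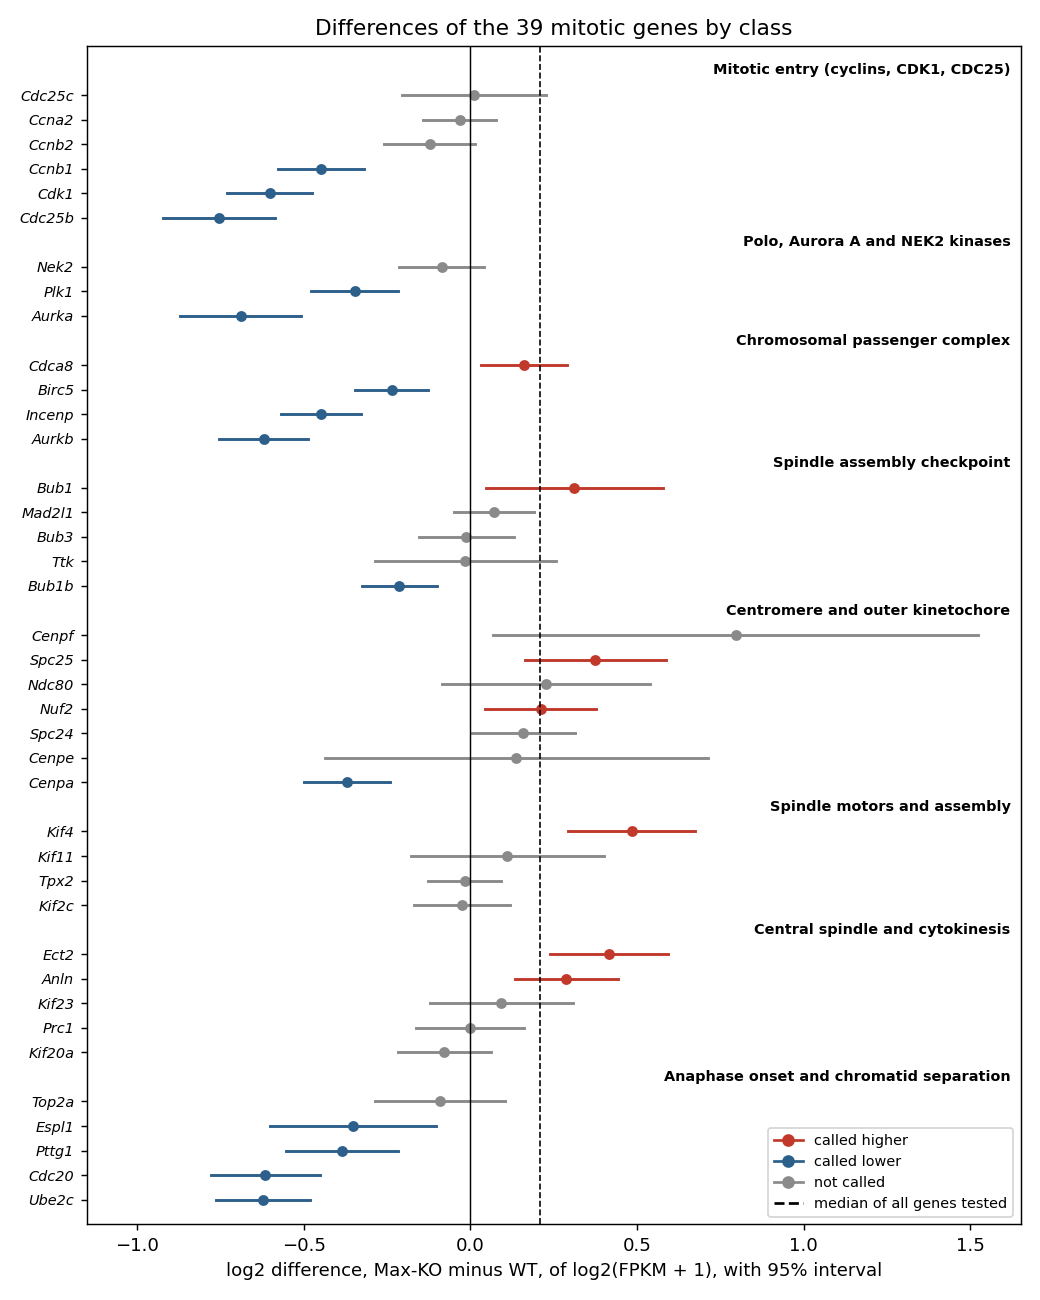
Log2 difference, Max-KO minus WT, of log2(FPKM + 1) for each gene with its 95% interval, by class, with genes called higher in red, called lower in blue and not called in grey. The dashed line marks the median of all genes tested (0.21), and the calls run from −0.75 for Cdc25b to 0.48 for Kif4.

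Promoters were examined for the elements that G2 and mitosis genes share, and 4 are printed here, those of the 2 members that fell most and of the 2 with the largest positive differences. RefSeq start sites on GRCm38.p6 gave 35 windows of 300 bases, from 250 before the start to 50 after it, for 32 of the 39 genes. On both strands the CHR was searched as TTTGAA and in a variant form, written TTCGAA. The CCAAT box was searched as CCAAT, and the E-box that MYC and MAX bind as CACGTG. The letters of these motifs cannot be read as one another. Capitals mark CHR and CCAAT matches, a match on the opposite strand being written as the given strand reads (ATTGG). The windows are chr2:131186698-131186997 on the plus strand for Cdc25b, chr2:172370521-172370820 on the minus strand for Aurka, chr1:189688037-189688336 on the minus strand for Cenpf and chrX:100625815-100626114 on the plus strand for Kif4, each written 5′ to 3′ along the gene.
Cdc25b: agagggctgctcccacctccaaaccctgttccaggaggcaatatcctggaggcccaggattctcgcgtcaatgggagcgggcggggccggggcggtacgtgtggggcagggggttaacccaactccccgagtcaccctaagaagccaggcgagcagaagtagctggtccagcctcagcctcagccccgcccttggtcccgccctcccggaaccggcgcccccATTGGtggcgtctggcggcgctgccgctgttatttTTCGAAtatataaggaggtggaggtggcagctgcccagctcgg
Aurka: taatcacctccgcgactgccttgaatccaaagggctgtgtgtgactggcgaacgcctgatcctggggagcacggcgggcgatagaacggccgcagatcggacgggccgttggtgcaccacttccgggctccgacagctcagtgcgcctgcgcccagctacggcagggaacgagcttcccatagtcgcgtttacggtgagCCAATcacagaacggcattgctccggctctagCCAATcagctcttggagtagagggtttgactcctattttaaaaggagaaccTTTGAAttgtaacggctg
Cenpf: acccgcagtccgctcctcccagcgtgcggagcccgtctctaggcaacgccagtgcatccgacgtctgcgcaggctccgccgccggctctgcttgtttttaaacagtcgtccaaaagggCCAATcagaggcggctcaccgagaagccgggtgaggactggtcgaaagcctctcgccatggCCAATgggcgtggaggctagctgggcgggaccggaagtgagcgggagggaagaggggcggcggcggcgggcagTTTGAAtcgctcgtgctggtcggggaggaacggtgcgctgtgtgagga
Kif4: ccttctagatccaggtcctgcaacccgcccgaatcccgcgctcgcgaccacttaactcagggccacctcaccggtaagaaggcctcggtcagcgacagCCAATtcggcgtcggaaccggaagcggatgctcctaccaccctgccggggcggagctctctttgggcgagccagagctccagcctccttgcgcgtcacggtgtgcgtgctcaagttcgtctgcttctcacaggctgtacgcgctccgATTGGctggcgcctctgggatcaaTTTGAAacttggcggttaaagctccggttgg

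In all 4 the CHR match lay within 32 bases downstream of the start, at 7 bases in Cdc25b, 32 in Aurka, 2 in Cenpf and 19 in Kif4, with at least 1 CCAAT box upstream of it. None of the 4 held CACGTG. Of the 35 member windows 28 held a CHR (80.0%), against 19.2% of all 32851 promoters of the table, and 28 held a CCAAT box (80.0%), against 37.4%. By direction of the difference, a CHR stood in 9 of 12 windows of members called lower and in 7 of 8 of members called higher, and in 12 of 15 of members not called. Ect2, called higher, and Prc1 and Bub3, not called, each had 2 overlapping windows with a CHR, which were counted separately. An E-box stood in 3 member windows, those of Espl1 (called lower), Anln (called higher) and Ttk (not called), 8.57% of windows against 7.15% of all promoters. Among promoters of all tested genes, it stood in 11.6% of those called lower and 9.22% of those called higher. A match is a description of the letters, and its absence says nothing of binding.

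Among the genes of mitotic entry, Cdk1, Ccnb1 and Cdc25b fell in Max-KO libraries while Ccna2, Ccnb2 and Cdc25c did not pass the test. The 6 genes summed to 534 ± 14.7 FPKM in Max-KO and 689 ± 23.6 FPKM in WT libraries (SD, n = 3 each), with a class median of −0.28 that kept its sign under all 4 scalings. Cdk1, the kinase that starts mitosis (ENSMUSG00000019942; GRCm38 chromosome 10, 69335146 to 69352938, minus strand), was at 153, 149 and 158 FPKM in Max-KO libraries, against 226, 228 and 245 FPKM in WT libraries. The highest Max-KO library lay far below the lowest WT library. The mean fell by 34.3%, with a log2 difference of −0.60 ± 0.05 (SE; 95% interval −0.73 to −0.47; limma adjusted p = 8.66e-05). Ccnb1, the main cyclin partner of CDK1, averaged 153 ± 5.20 FPKM in Max-KO and 210 ± 8.78 FPKM in WT libraries (log2 difference −0.45 ± 0.05 SE, adjusted p = 0.000335).

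Cdc25b, a phosphatase that activates CDK1 at the end of G2 and whose promoter is printed above (ENSMUSG00000027330; chromosome 2, 131186949 to 131198497), had the largest fall of the 39. It was at 9.53, 9.52 and 9.03 FPKM in Max-KO libraries, against 15.7, 16.7 and 17.0 FPKM in WT libraries. The mean fell by 43.2% (log2 difference −0.75 ± 0.07 SE, 95% interval −0.92 to −0.59, limma adjusted p = 0.000105), at the lowest level of all members. It shares 92 exon bases with Spef1 on the opposite strand, which was under 1 FPKM on average in both groups. Cdc25c, its relative, overlapped between groups at 15.1 ± 1.75 FPKM in Max-KO and 15.0 ± 0.375 FPKM in WT libraries, and the ratio of Cdc25b to Cdc25c within a library was 0.623 ± 0.0657 in Max-KO and 1.10 ± 0.0704 in WT libraries (SD, n = 3 each).

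The other cyclins moved less. Ccnb2, a second B-type cyclin, was at 117 ± 6.10 FPKM in Max-KO and 127 ± 4.30 FPKM in WT libraries, without overlap but not called (log2 difference −0.12, 95% interval −0.26 to 0.01, adjusted p = 0.1002). Its sign turned to 0.09 after rescaling to TPM. A processed copy, Ccnb2-ps, was listed at 4.86 ± 0.747 FPKM in Max-KO and 1.88 ± 0.413 FPKM in WT libraries, and reads of the 2 could be split either way. Ccna2, the cyclin of S phase and G2, stood at 86.6 ± 2.38 FPKM in Max-KO and 88.5 ± 0.0551 FPKM in WT libraries (log2 difference −0.03, 95% interval −0.14 to 0.08). It was called lower under median-ratio scaling (−0.21) and higher after rescaling to TPM (0.18), so its direction is not settled by these values. It also shares 510 exon bases with Exosc9.

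Of the other mitotic kinases, Plk1 and Aurka fell and Nek2 was not called. Aurka encodes Aurora A, which matures centrosomes and helps build the spindle (ENSMUSG00000027496; chromosome 2, 172356190 to 172370535, minus strand), and its promoter is printed above. It was at 66.1, 60.4 and 68.9 FPKM in Max-KO libraries, against 100, 101 and 115 FPKM in WT libraries. The groups stood well apart, and the mean fell by 38.4% (log2 difference −0.69 ± 0.08 SE, 95% interval −0.87 to −0.51, limma adjusted p = 0.000240).

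Plk1, the Polo kinase needed from mitotic entry to cytokinesis, was at 78.2, 79.6 and 78.7 FPKM in Max-KO libraries, against 97.9, 97.0 and 107 FPKM in WT libraries. The Max-KO libraries lay close together and below all WT libraries. The mean fell by 21.7% (log2 difference −0.35 ± 0.06 SE, limma adjusted p = 0.00127). Nek2, a kinase of centrosome separation, averaged 32.9 ± 0.495 FPKM in Max-KO and 35.0 ± 1.07 FPKM in WT libraries (log2 difference −0.09, 95% interval −0.21 to 0.04). It was called lower under median-ratio scaling (−0.26) and with equal quantiles (−0.17), and its sign turned to 0.12 after rescaling to TPM.

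The chromosomal passenger complex corrects faulty attachments and later moves to the central spindle, and its 4 subunits split. Aurkb, Incenp and Birc5 fell while Cdca8 rose. Aurkb, the Aurora B kinase of the complex (ENSMUSG00000020897; chromosome 11, 69045647 to 69051664), was at 51.8, 51.4 and 51.6 FPKM in Max-KO libraries, against 84.9, 76.3 and 78.4 FPKM in WT libraries. Its Max-KO libraries were nearly equal, and the mean fell by 35.4% (log2 difference −0.62 ± 0.06 SE, 95% interval −0.75 to −0.49, limma adjusted p = 9.27e-05). Incenp, the scaffold that activates Aurora B, averaged 57.6 ± 2.29 FPKM in Max-KO and 78.9 ± 0.614 FPKM in WT libraries (log2 difference −0.45 ± 0.05 SE, adjusted p = 0.000256).

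Birc5, which encodes survivin, the subunit that brings the complex to centromeres, was at 155, 154 and 151 FPKM in Max-KO libraries, against 185, 175 and 181 FPKM in WT libraries. It lay lower in all 3 Max-KO libraries (log2 difference −0.24 ± 0.05 SE, limma adjusted p = 0.00348), but the call was lost on the TPM scale (−0.02, adjusted p = 0.671) and with equal quantiles (−0.04, adjusted p = 0.430). Cdca8, which encodes borealin, was at 106, 105 and 106 FPKM in Max-KO libraries, against 89.1, 99.0 and 95.9 FPKM in WT libraries. This small rise (log2 difference 0.16 ± 0.05 SE, adjusted p = 0.0347) rested on its setting. It missed the threshold without WT 1 (adjusted p = 0.120), without any 1 Max-KO library (0.0771 to 0.0889), without a filter (0.0615) and without the variance trend (0.0805), and its sign turned to −0.02 under median-ratio scaling. Cdca8 shares 232 exon bases with 9930104L06Rik on the opposite strand, which averaged 15.6 FPKM in Max-KO and 9.97 FPKM in WT libraries.

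The balance of subunit RNAs within the complex also differed, and a ratio of genes in 1 library is free of the scaling between libraries. Aurkb stood to Cdca8 as 0.488 ± 0.000991 in Max-KO and 0.847 ± 0.0945 in WT libraries, and Birc5 to Cdca8 as 1.45 ± 0.0203 in Max-KO and 1.91 ± 0.155 in WT libraries (SD, n = 3 each, no overlap). Aurkb stood to Incenp as 0.896 ± 0.0377 in Max-KO and 1.01 ± 0.0585 in WT libraries. These and the other ratios below were chosen after values were seen and carry no test.

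The 5 spindle assembly checkpoint genes differed little between the groups. Bub1b fell, Bub1 rose and Bub3, Mad2l1 and Ttk were not called. The class summed to 293 ± 3.21 FPKM in Max-KO and 289 ± 7.15 FPKM in WT libraries, and its median of −0.01 turned positive on the TPM scale (0.20) and under quantile normalization (0.03). Bub1, the kinase that places the checkpoint and shugoshin at kinetochores, was at 63.8, 65.8 and 59.6 FPKM in Max-KO libraries, against 55.1, 55.9 and 42.0 FPKM in WT libraries. All 3 Max-KO libraries lay above the WT libraries, of which WT 3 was far below the others.

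The rise of Bub1 (log2 difference 0.31 ± 0.11 SE, 95% interval 0.05 to 0.58, limma adjusted p = 0.0426) missed the threshold without any 1 Max-KO library (adjusted p = 0.0626 to 0.119), without a filter (0.0852), without the variance trend (0.0665) and under median-ratio scaling (0.14, 0.288). Without WT 3 it was 0.18 and still called (adjusted p = 0.0298). Bub1b, which encodes BUBR1, an inhibitor of APC/C in the checkpoint complex, was at 62.8, 63.4 and 61.1 FPKM in Max-KO libraries, against 71.1, 72.9 and 73.6 FPKM in WT libraries. It fell by 13.9% on average (log2 difference −0.21 ± 0.05 SE, adjusted p = 0.00588), and was not called after rescaling to TPM (adjusted p = 0.966). The ratio of Bub1 to Bub1b was 1.01 ± 0.0307 in Max-KO and 0.704 ± 0.115 in WT libraries (SD, n = 3 each) and did not overlap.

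Bub3, the partner that brings both proteins to kinetochores and the most abundant of the class, was at 76.9, 76.8 and 80.9 FPKM in Max-KO libraries, against 75.5, 76.9 and 84.5 FPKM in WT libraries. The groups overlapped (log2 difference −0.01, 95% interval −0.16 to 0.13). It was called lower under median-ratio scaling (−0.19, adjusted p = 0.0438) and higher after rescaling to TPM (0.20, adjusted p = 0.00939). Mad2l1, which encodes the MAD2 protein that captures CDC20, averaged 65.8 ± 0.966 FPKM in Max-KO and 62.6 ± 2.22 FPKM in WT libraries (log2 difference 0.07, 95% interval −0.05 to 0.19). Ttk, which encodes the MPS1 kinase that starts the checkpoint, averaged 23.3 ± 2.14 FPKM in Max-KO and 23.7 ± 3.20 FPKM in WT libraries (log2 difference −0.02, 95% interval −0.29 to 0.26).

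At the centromere and outer kinetochore, Cenpa fell while Spc25 and Nuf2, both of the NDC80 complex that grips microtubules, rose. The class summed to 417 ± 3.88 FPKM in Max-KO and 416 ± 24.9 FPKM in WT libraries, a sum in which the fall of Cenpa, its most abundant member, offsets the others: 6 of 7 differences were positive, and the median of 0.21, about that of all genes, was above 0 under each of the 4 scalings. Cenpa, the histone H3 variant of the centromere (ENSMUSG00000029177; chromosome 5, 30666777 to 30674830), was at 150, 138 and 145 FPKM in Max-KO libraries, against 194, 186 and 180 FPKM in WT libraries. It was lower in each Max-KO library than in any WT library (log2 difference −0.37 ± 0.06 SE, 95% interval −0.50 to −0.24, limma adjusted p = 0.000897), and just missed the threshold after rescaling to TPM (−0.16, adjusted p = 0.0512).

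Spc25 was at 46.6, 49.7 and 49.3 FPKM in Max-KO libraries, against 39.7, 39.9 and 32.4 FPKM in WT libraries. The lowest Max-KO library lay above the highest WT library (log2 difference 0.38 ± 0.09 SE, limma adjusted p = 0.00812), and the call was lost under median-ratio scaling (0.20, adjusted p = 0.0693). Nuf2 averaged 30.6 ± 0.925 FPKM in Max-KO and 26.3 ± 1.89 FPKM in WT libraries (log2 difference 0.21 ± 0.07 SE, adjusted p = 0.0320). That difference is about the median of all genes, and the call was lost without WT 1 (adjusted p = 0.0547), Max-KO 1 (0.0917) or Max-KO 2 (0.0817), without a filter (0.0599), without the variance trend (0.0502), with median ratios (0.04, 0.636) and with equal quantiles (0.09, 0.271).

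Of the remaining subunits of the NDC80 complex, Spc24 averaged 113 ± 4.61 FPKM in Max-KO and 101 ± 6.76 FPKM in WT libraries without overlap (log2 difference 0.16, 95% interval 0.00 to 0.31, adjusted p = 0.0659), and its sign turned under median-ratio scaling (−0.02). Ndc80 overlapped between groups at 30.7 ± 2.46 FPKM in Max-KO and 26.3 ± 4.57 FPKM in WT libraries (log2 difference 0.23, 95% interval −0.09 to 0.54). The ratio of Spc25 to Spc24, which pair in the complex, was 0.431 ± 0.00377 in Max-KO and 0.373 ± 0.0624 in WT libraries, with WT 3 the lowest at 0.304. The ratio of Ndc80 to Nuf2, the other pair, overlapped at 1.00 ± 0.0980 in Max-KO and 0.994 ± 0.110 in WT libraries.

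Cenpf, a large coiled-coil protein of the kinetochore, and Cenpe, a kinesin of the kinetochore, varied most among the WT libraries, and their libraries are given for that reason, a choice made after the values were seen. Cenpf, whose promoter is printed above, was at 24.9, 27.9 and 26.4 FPKM in Max-KO libraries, against 18.43, 20.02 and 8.57 FPKM in WT libraries. It had the largest positive difference of the 39 (0.80, 95% interval 0.07 to 1.52) without overlap but was not called (adjusted p = 0.0548). Without WT 3 the difference was 0.44 and called (adjusted p = 0.00320), and without WT 2 it was 1.00 (adjusted p = 0.0294). Cenpe was at 23.6, 23.9 and 23.6 FPKM in Max-KO libraries, against 23.4, 29.4 and 14.2 FPKM in WT libraries. The 3 Max-KO values fell inside the WT range, and the difference of 0.14 (95% interval −0.44 to 0.71) turned to −0.14 without WT 3.

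Among the spindle motors and assembly factors only Kif4 was called. Kif4, the chromokinesin that sets chromosome structure and spindle midzone length (ENSMUSG00000034311; chromosome X, 100625737 to 100727214), was at 22.5, 24.4 and 22.6 FPKM in Max-KO libraries, against 16.4, 17.7 and 14.9 FPKM in WT libraries. Every Max-KO library lay above every WT library, and the log2 difference was 0.48 ± 0.08 (SE; 95% interval 0.29 to 0.67; limma adjusted p = 0.00154), the largest of any member called higher. It is one of the promoters printed above. Kif4, whose longest annotated transcript has 4983 bases, shares 832 exon bases with Pdzd11 on the opposite strand. Pdzd11 averaged 30.8 FPKM in Max-KO and 23.5 FPKM in WT libraries. No source tells whether the kit kept strand, so whether reads in the shared bases were told apart is not known. In all, 12 members share exon bases with another gene, Cdc20 with Elovl1 (53 bases) and Prc1 with Rccd1 (911 bases) among them. The processed copy Kif4-ps was at or under 0.08 FPKM in all libraries.

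Tpx2, which activates Aurora A on the spindle and was the most abundant of the class, was at 76.7, 75.9 and 73.8 FPKM in Max-KO libraries, against 76.3, 77.4 and 75.5 FPKM in WT libraries. The groups overlapped, with a log2 difference of −0.02 (95% interval −0.13 to 0.09) that was called lower under median-ratio scaling (−0.20, adjusted p = 0.0102) and higher after rescaling to TPM (0.19, adjusted p = 0.0104). Against this partner Aurka stood at 0.864 ± 0.0692 in Max-KO and 1.38 ± 0.125 in WT libraries (SD, n = 3 each), a ratio without overlap. Kif11, the Eg5 motor that pushes poles apart, averaged 46.1 ± 1.34 FPKM in Max-KO and 43.0 ± 7.38 FPKM in WT libraries (log2 difference 0.11, 95% interval −0.18 to 0.40, and −0.04 without WT 3). Kif2c, the microtubule depolymerase MCAK, averaged 62.1 ± 0.767 FPKM in Max-KO and 63.3 ± 4.22 FPKM in WT libraries (log2 difference −0.03, 95% interval −0.17 to 0.12).

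Of the 5 genes of the central spindle and cytokinesis, Ect2 and Anln rose and Kif20a, Kif23 and Prc1 were not called, with 345 ± 11.6 FPKM in Max-KO and 314 ± 16.3 FPKM in WT libraries for the class. Ect2, the exchange factor that switches on RhoA at the equator (ENSMUSG00000027699; chromosome 3, 27097222 to 27153878, minus strand), was at 81.3, 80.8 and 75.6 FPKM in Max-KO libraries, against 62.1, 62.3 and 53.3 FPKM in WT libraries. The mean was 1.338 times as high, with no overlap (log2 difference 0.42 ± 0.07 SE, 95% interval 0.24 to 0.59, limma adjusted p = 0.00219). Anln, which encodes anillin, the scaffold of the contractile ring, averaged 58.5 ± 1.94 FPKM in Max-KO and 47.8 ± 3.20 FPKM in WT libraries (log2 difference 0.29 ± 0.07 SE, adjusted p = 0.00645). Its call was lost under median-ratio scaling (0.11, adjusted p = 0.153).

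Kif20a, the kinesin that brings the passenger complex to the midzone, was at 68.0, 76.1 and 74.0 FPKM in Max-KO libraries, against 78.0, 74.4 and 77.8 FPKM in WT libraries, with overlap (log2 difference −0.08, 95% interval −0.22 to 0.06). It shares 1271 exon bases with the APC/C subunit gene Cdc23 on the opposite strand, which averaged 48.2 FPKM in Max-KO and 42.3 FPKM in WT libraries. Kif23, the kinesin subunit of centralspindlin, averaged 67.2 ± 7.51 FPKM in Max-KO and 62.7 ± 4.17 FPKM in WT libraries with overlap (log2 difference 0.09, 95% interval −0.12 to 0.31). Its partner Racgap1, outside the 39, fell, and the ratio of Kif23 to Racgap1 was 1.34 ± 0.0831 in Max-KO and 0.882 ± 0.0536 in WT libraries (SD, n = 3 each). Prc1, the bundler of midzone microtubules, averaged 67.4 ± 0.969 FPKM in Max-KO and 67.6 ± 5.57 FPKM in WT libraries (95% interval of the log2 difference −0.16 to 0.16).

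Anaphase onset was the class with the most genes lower: Cdc20, Ube2c, Pttg1 and Espl1 fell and Top2a was not called. The 5 genes summed to 807 ± 29.6 FPKM in Max-KO and 1043 ± 8.47 FPKM in WT libraries, and the median of −0.38 kept its sign under all 4 scalings. Ube2c, the ubiquitin-conjugating enzyme of APC/C (ENSMUSG00000001403; chromosome 2, 164769898 to 164778822), was at 176, 175 and 192 FPKM in Max-KO libraries, against 274, 270 and 294 FPKM in WT libraries. The Max-KO libraries lay far below the WT libraries, and the mean fell by 35.2% (log2 difference −0.62 ± 0.06 SE, 95% interval −0.76 to −0.48, limma adjusted p = 0.000119). It shares 592 exon bases with Tnnc2 on the opposite strand, which averaged 1.31 FPKM in Max-KO and 6.00 FPKM in WT libraries.

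Cdc20, the APC/C activator of anaphase (ENSMUSG00000006398; chromosome 4, 118432901 to 118437352, minus strand), averaged 143 ± 6.77 FPKM in Max-KO and 220 ± 16.4 FPKM in WT libraries (SD, n = 3 each). Its mean fell by 34.9% (log2 difference −0.62 ± 0.07 SE, adjusted p = 0.000242). Fzr1, the APC/C activator of mitotic exit and G1 and not among the 39, gives the comparison within a library: Cdc20 stood to Fzr1 as 2.79 ± 0.289 in Max-KO and 4.03 ± 0.167 in WT libraries. Cdc20 stood to Mad2l1, its inhibitor, as 2.18 ± 0.118 in Max-KO and 3.52 ± 0.384 in WT libraries. Neither ratio overlapped between the groups. Ube2c and Ube2s, which start and extend ubiquitin chains on APC/C substrates, kept overlapping ratios of 0.597 ± 0.0372 in Max-KO and 0.611 ± 0.0213 in WT libraries.

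Pttg1, which encodes securin, averaged 73.7 ± 6.21 FPKM in Max-KO and 96.3 ± 2.82 FPKM in WT libraries (log2 difference −0.38 ± 0.07 SE, limma adjusted p = 0.00245), and its call was lost after rescaling to TPM (−0.17, adjusted p = 0.0623). Espl1, which encodes separase, averaged 52.6 ± 2.58 FPKM in Max-KO and 67.9 ± 9.67 FPKM in WT libraries (log2 difference −0.35 ± 0.11 SE, adjusted p = 0.0209). The fall of Espl1 missed the threshold without WT 1 (adjusted p = 0.0595), WT 3 (0.0583), Max-KO 1 (0.0636) or Max-KO 3 (0.0645) and after rescaling to TPM (−0.14, 0.265). The ratio of securin to separase RNA overlapped, at 1.40 ± 0.0790 in Max-KO and 1.44 ± 0.192 in WT libraries. Top2a, the topoisomerase that untangles sister chromatids, was the most abundant of the 39, at 328, 370 and 371 FPKM in Max-KO libraries, against 395, 402 and 342 FPKM in WT libraries. The groups overlapped, and the log2 difference of −0.09 (95% interval −0.29 to 0.10) was called lower under median-ratio scaling (−0.27, adjusted p = 0.0202) and turned positive on the TPM scale (0.12) and under quantile normalization (0.19).

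Set side by side, the classes fell into a lower and a level part. Mitotic entry (−0.28), the Polo, Aurora A and NEK2 kinases (−0.35), the passenger complex (−0.34) and anaphase onset (−0.38) had medians below 0 under each of the 4 scalings. Together these 4 classes held 12 of the 14 lower calls and 1 of the 7 higher calls. They were put together by their medians after the values were seen, so these counts follow largely from that choice. The checkpoint (−0.01), spindle motors (0.05), central spindle (0.09) and outer kinetochore (0.21) classes held the other 2 lower and 6 higher calls, and the sign of their medians depended on the scaling except for the outer kinetochore. Under median-ratio scaling they stood at −0.19 for the checkpoint, −0.13 for the motors, −0.08 for the central spindle and 0.04 for the outer kinetochore. Median-ratio scaling added 9 lower calls (Ccna2, Ccnb2, Nek2, Bub3, Kif2c, Tpx2, Kif20a, Prc1 and Top2a) and rescaling to TPM 10 higher calls (Ccna2, Bub3, Mad2l1, Cenpf, Ndc80, Spc24, Kif2c, Tpx2, Kif23 and Prc1), so that Ccna2, Bub3, Kif2c, Tpx2 and Prc1 were called lower under one scaling and higher under the other. Relative to the median of all genes, none of the medians of the checkpoint, motor, central spindle and outer kinetochore classes lay more than 0.01 above it as deposited.

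**Figure D3:**
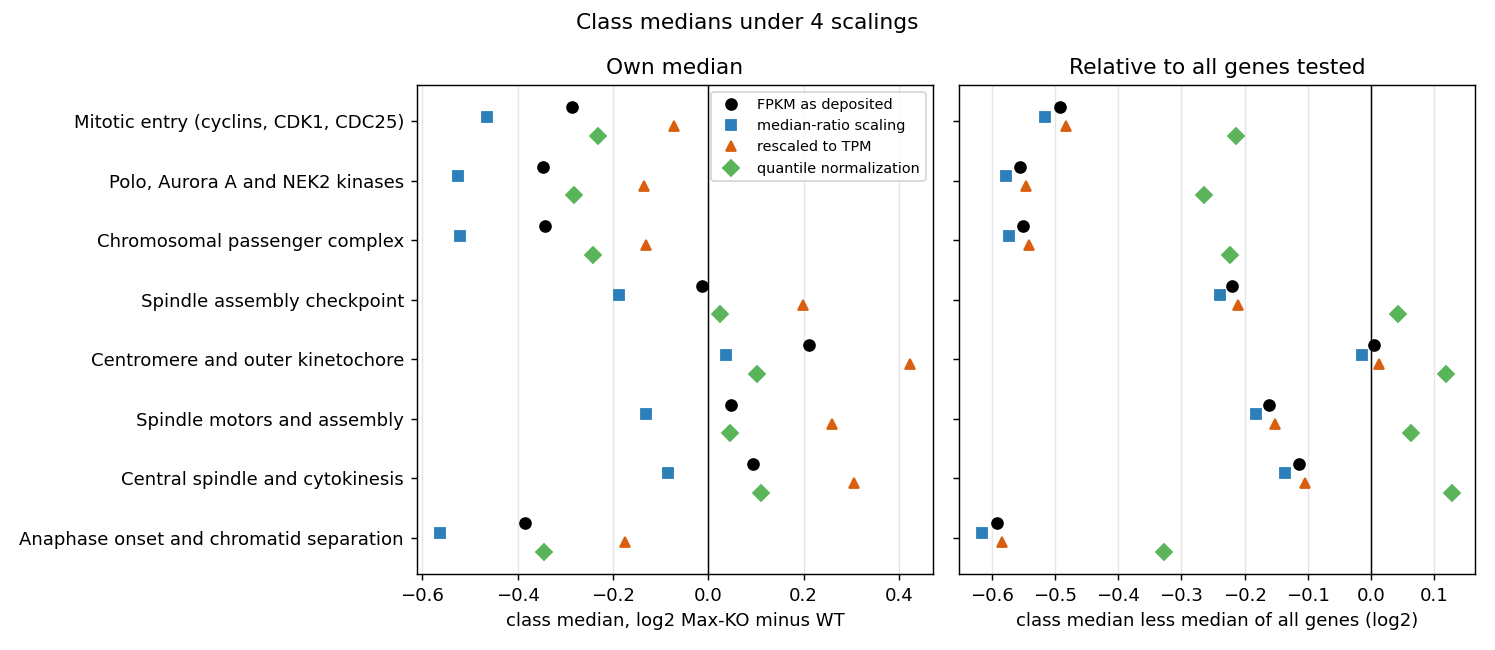
Median log2 difference, Max-KO minus WT, of each class under 4 scalings, on the left as it is and on the right less the median of all genes tested under the same scaling. Mitotic entry, the Polo, Aurora A and NEK2 kinases, the passenger complex and anaphase onset lie below 0 in each scaling, and the other classes change sign with it, apart from the outer kinetochore on the left, which runs from 0.04 to 0.42.

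The differences also went with level. Across the 39 genes the log2 difference correlated with log2 mean FPKM at r = −0.437 (Spearman −0.515), and across all 14661 tested genes at r = −0.218 (Spearman −0.260). All points share the same 6 libraries, and genes are not independent replicates. Of 10 mitotic genes at 100 FPKM or more 60.0% were lower, against 56.6% of all genes at that level, and the medians were −0.30 in both. Of 18 between 50 and 100 FPKM 38.9% were lower and 16.7% higher, against 37.7% lower and 34.0% higher of all genes. The medians were −0.03 in both. Of 11 below 50 FPKM 9.09% were lower and 27.3% higher, against 19.2% lower and 45.7% higher of all genes, with medians of 0.14 and 0.28. The share of lower calls among the mitotic genes was therefore near that of equally abundant genes above 50 FPKM. Their share of higher calls was smaller than that of equally abundant genes in each range. These ranges were chosen after the data were seen.

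**Figure D4:**
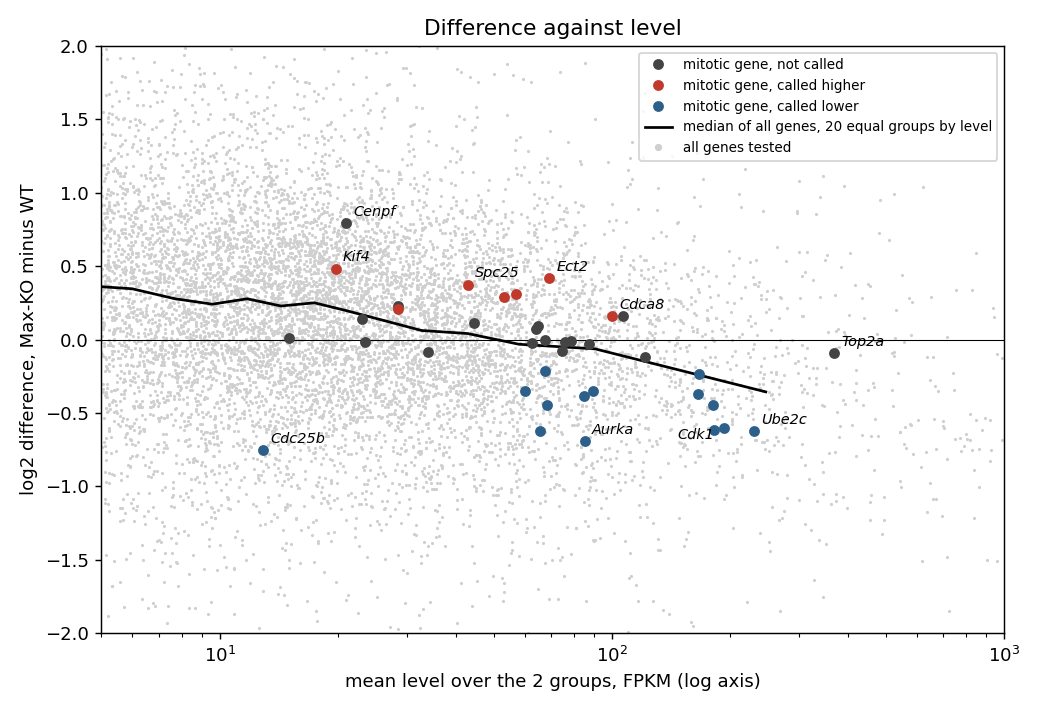
Log2 difference, Max-KO minus WT, against mean FPKM (log axis) for the 39 mitotic genes (coloured by call) over all genes tested (grey, cropped to the range of the axes), with a line through the medians of 20 equal groups of genes by level. The line passes below 0 at high levels, and Aurka, Cdk1, Ube2c and Cdc25b lie under it while Ect2, Kif4 and Cenpf lie above it.

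WT 3 stood apart from the other WT libraries for several members. Its FPKM was 0.446 times the mean of WT 1 and WT 2 for Cenpf, 0.539 times for Cenpe, 0.728 times for Ndc80, 0.730 times for Kif11 and 0.758 times for Bub1, against 1.14 times for Aurka and 1.13 times for Cdc20. Across the 39 genes this deviation (log2) correlated with log2 length of the longest annotated transcript at r = −0.601 (Spearman −0.502), and across all genes tested at r = −0.065 (Spearman −0.191). The 4 members whose longest annotated transcript had 6000 bases or more did not behave alike. Cenpf and Cenpe were the lowest of the 39, while WT 3 was at 0.949 times the mean of the others for Mad2l1 and 1.04 times for Espl1. The values are per gene and do not tell which transcript was expressed, so the annotated length may not be the length in these cells. The log2 difference between groups itself correlated with length at r = 0.467 (Spearman 0.427) over the 39 and 0.028 (Spearman 0.091) over all genes. Over all genes its median was 0.12 under 2000 bases and 0.41 at 6000 bases or more. The share higher was 35.7% and 56.2% in these ranges, and the share lower 27.4% and 11.6%. Without WT 3, 13 members were lower and 9 higher: Cenpf and Spc24 were then called higher and Espl1 was no longer called. Without Max-KO 1 or Max-KO 2 the higher calls were 4, with 13 and 14 lower calls. Why WT 3 differed was not tested.

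**Figure D5:**
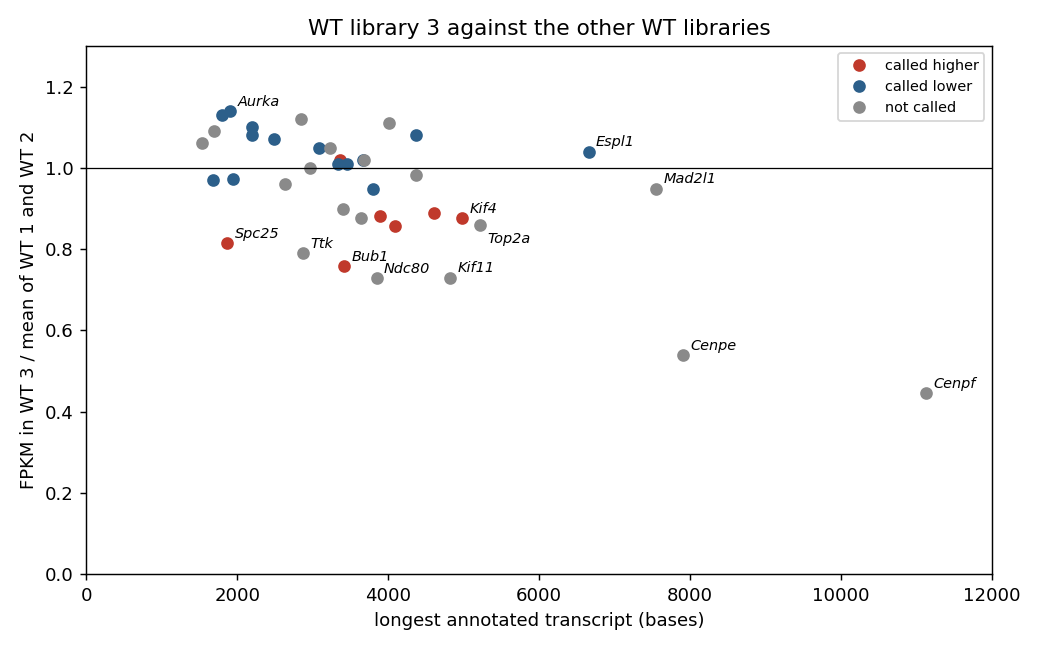
FPKM in WT 3 divided by the mean of WT 1 and WT 2 for each of the 39 genes, against the length of its longest annotated transcript in bases, coloured by call. Cenpf (0.446) and Cenpe (0.539) are the lowest points, and Aurka (1.14) is among the highest.

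The same machinery was followed beyond the 39 in 10 lists of 126 further genes, of which 122 were tested, with 47 higher and 24 lower. That is 38.5% higher and 19.7% lower, near the 43.0% and 23.2% of all genes. Among 17 subunits and regulators of APC/C 6 rose and 6 fell (35.3% each), although under median-ratio scaling none was higher and 10 were lower. Fbxo5, which encodes EMI1, the APC/C inhibitor of S phase and G2, averaged 27.8 ± 1.89 FPKM in Max-KO and 48.0 ± 3.99 FPKM in WT libraries (log2 difference −0.77 ± 0.08 SE, adjusted p = 0.000204). Cdc26, a small APC/C subunit, averaged 32.7 ± 1.299 FPKM in Max-KO and 52.6 ± 1.07 FPKM in WT libraries (−0.67). Cdc27 (0.41) and Anapc4 (0.38), larger subunits, rose, but both calls were lost under median-ratio scaling (0.23 and 0.21).

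Of 4 CENP-A loading factors 3 rose and none fell, beside 43.0% higher and 23.2% lower of all genes tested. Only 2 were higher without a filter, without the variance trend, with median ratios and with equal quantiles. The same count held without WT 1, without WT 3 and without any 1 Max-KO library. Mis18a, which licenses centromeres for new CENP-A, averaged 32.1 ± 1.25 FPKM in Max-KO and 22.0 ± 0.423 FPKM in WT libraries (log2 difference 0.52 ± 0.06 SE, adjusted p = 0.000242). Hjurp, the CENP-A chaperone, averaged 95.6 ± 3.39 FPKM in Max-KO and 72.4 ± 6.36 FPKM in WT libraries (0.40 ± 0.07 SE, adjusted p = 0.00246). Of 25 inner kinetochore, KMN and SKA genes 9 rose and 4 fell, each a smaller share than among all genes tested (43.0% and 23.2%). Under median-ratio scaling 5 were higher and 8 lower. Mis12, which links the inner kinetochore to NDC80, averaged 53.5 ± 3.82 FPKM in Max-KO and 28.8 ± 4.39 FPKM in WT libraries (0.88 ± 0.11 SE, adjusted p = 0.000448), and Itgb3bp, which encodes CENP-R, rose by 0.85, a call lost under quantile normalization (0.47, adjusted p = 0.0549). Ska1 (−0.41) and Cenpx (−0.40) fell, the first of them not after rescaling to TPM (−0.21, adjusted p = 0.129).

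Of 10 further checkpoint and centromere guardian genes 6 rose and none fell, beside 43.0% higher of all genes tested, and their median was 0.40, against 0.21 for all genes. No test of the list was made. Under the other scalings 5 to 9 were higher and none lower, and without WT 3 there were 6 higher and 1 lower. Kntc1, the ROD subunit that brings MAD1 and dynein to kinetochores, was at 39.8, 46.8 and 43.7 FPKM in Max-KO libraries, against 20.8, 25.1 and 22.4 FPKM in WT libraries. It was higher in all 3 Max-KO libraries (log2 difference 0.90 ± 0.09 SE, adjusted p = 0.000150). Mad1l1, the kinetochore receptor of MAD2, averaged 24.7 ± 3.52 FPKM in Max-KO and 15.8 ± 1.74 FPKM in WT libraries (0.61 ± 0.12 SE, adjusted p = 0.00342).

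Of 8 condensin subunits 4 were higher and none lower, beside 43.0% higher and 23.2% lower of all genes tested. The share higher was thus little above that of all genes. Under median-ratio scaling none was higher and 3 were lower. The higher calls were 2 without a filter and 1 without any 1 of the Max-KO libraries. Smc2, an ATPase of both condensins, was at 61.3, 62.9 and 58.9 FPKM in Max-KO libraries, against 43.0, 43.4 and 21.7 FPKM in WT libraries. Smc4, its partner, was at 81.6, 86.6 and 83.4 FPKM in Max-KO libraries, against 61.0, 61.2 and 30.6 FPKM in WT libraries. Both were called (0.81, adjusted p = 0.0352, and 0.78, adjusted p = 0.0442) with WT 3 at 0.501 times the mean of WT 1 and WT 2. Each call was lost without any 1 Max-KO library, without a filter and under median-ratio scaling, and both stood without WT 3.

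Among 13 centrosome and spindle pole genes 4 rose (30.8%) and 2 fell (15.4%), beside 43.0% and 23.2% of all genes tested. Under median-ratio scaling 1 was higher and 3 lower. Sass6, the cartwheel protein of new centrioles, averaged 10.6 ± 0.878 FPKM in Max-KO and 5.27 ± 0.246 FPKM in WT libraries (log2 difference 0.88 ± 0.09 SE, adjusted p = 0.000174). Aspm rose by 0.49, a call lost under 6 of the 13 alternatives, and Tubg1, the gamma-tubulin gene, fell by 0.37. Hmmr fell by 0.42, a call also lost under 6 of them, among these without WT 1, WT 2, Max-KO 1 or Max-KO 3. Of 13 other kinesins and spindle proteins 2 rose (15.4%) and 3 fell (23.1%). Racgap1, the GTPase-activating subunit of centralspindlin, averaged 49.9 ± 3.26 FPKM in Max-KO and 71.1 ± 1.21 FPKM in WT libraries (−0.51 ± 0.06 SE, adjusted p = 0.000342). Cit, the citron kinase of cytokinesis, averaged 40.2 ± 0.285 FPKM in Max-KO and 30.1 ± 1.21 FPKM in WT libraries (0.41 ± 0.06 SE, adjusted p = 0.000596). Nusap1, a bundler of spindle microtubules, fell by 0.41, a call lost after rescaling to TPM, and Ckap2l rose by 0.26, a call lost under 8 of the 13 alternatives.

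Of 12 regulators of G2 and mitotic entry 4 rose (33.3%) and 5 fell (41.7%), beside 43.0% and 23.2% of all genes tested. Under median-ratio scaling 2 were higher and 8 lower. Chek2, a DNA damage kinase, averaged 17.3 ± 3.57 FPKM in Max-KO and 33.3 ± 5.44 FPKM in WT libraries (log2 difference −0.92 ± 0.17 SE, adjusted p = 0.00296). Cks1b, a small CDK-binding subunit, averaged 119 ± 2.48 FPKM in Max-KO and 185 ± 10.6 FPKM in WT libraries (−0.63 ± 0.06 SE, adjusted p = 8.98e-05). Ensa and Mastl, the phosphatase inhibitor and the kinase that keep PP2A-B55 off during mitosis, rose: Ensa averaged 51.7 ± 3.38 FPKM in Max-KO and 31.8 ± 0.717 FPKM in WT libraries (0.68 ± 0.06 SE, adjusted p = 0.000104), and Mastl rose by 0.48, a call lost with median ratios (0.31, adjusted p = 0.0533) and with equal quantiles (0.21, adjusted p = 0.138).

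A further list holds MuvB and NF-Y genes, whose products read the CHR and CCAAT elements marked above. It also holds E2F genes, whose sites were not searched. Of 17 MuvB, B-MYB, FOXM1, E2F and NF-Y genes 7 rose (41.2%) and 4 fell (23.5%), near the 43.0% and 23.2% of all genes tested. Under median-ratio scaling 5 were higher and 5 lower. Tfdp1, the main E2F partner, averaged 71.8 ± 1.74 FPKM in Max-KO and 121 ± 4.60 FPKM in WT libraries (log2 difference −0.74 ± 0.05 SE, adjusted p = 2.91e-05), and E2f4, an E2F of the repressive DREAM complex, averaged 58.3 ± 0.416 FPKM in Max-KO and 91.4 ± 4.68 FPKM in WT libraries (−0.64 ± 0.05 SE, adjusted p = 6.80e-05). Lin9, a core MuvB subunit, averaged 13.02 ± 0.922 FPKM in Max-KO and 7.96 ± 0.359 FPKM in WT libraries (0.64 ± 0.08 SE, adjusted p = 0.000465), and Tfdp2 rose by 0.51. The activators parted, a pair named after its values were seen. Mybl2, which encodes B-MYB, was at 173, 181 and 181 FPKM in Max-KO libraries, against 239, 239 and 261 FPKM in WT libraries (−0.46, adjusted p = 0.000332), while Foxm1 was at 35.0, 31.9 and 32.6 FPKM in Max-KO libraries, against 23.4, 27.1 and 22.8 FPKM in WT libraries (0.43, adjusted p = 0.00304). Neither pair of groups overlapped.

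The germ cell relatives of these genes were scarce. Of 7, 3 passed the filter, and 2 of them were higher. Aurkc, the Aurora kinase of meiosis, was at 3.77, 3.32 and 3.14 FPKM in Max-KO libraries, against 0.83, 0.72 and 1.10 FPKM in WT libraries, well below Aurka and Aurkb in both groups on this per-length scale. Meikin, the meiotic kinetochore partner of PLK1, was at 3.10, 3.31 and 2.37 FPKM in Max-KO libraries, against 0.06, 0.26 and 0.10 FPKM in WT libraries. Both averaged under 1 FPKM in WT and passed the filter through Max-KO alone, which fixed their direction. Kif2b was at 0 in all libraries, and Ccnb3, Fbxo43 and Mos averaged under 1 FPKM in both groups.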

How the data were processed

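Libraries of Max-/- and wild-type mouse embryonic stem cells, 3 each, were grouped by their labels. The deposited values are FPKM, 1 per gene and library, made by the authors with build GRCm38.p6, per the submitters' processing notes, which list HISAT2 2.1.0, RSEM, DESeq 1.26.0 and FastQC without role or order. The tables carry no header that names this unit. FPKM scale with the total of a library, so a few abundant genes can shift all others. No source states whether the libraries were stranded.

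Genotypes were compared with limma 3.58.1 (R 4.3.3; moderated with trend and robust options, 2-sided, no covariate) on log2(FPKM + 1) of the 14661 named genes whose mean reached 1 FPKM in either group. Adjusted p-values are Benjamini-Hochberg over these genes, with a threshold of 0.05, and differences are Max-KO minus WT on this log2 scale, which understates changes of low genes. The fit was tested on simulated data. Tables were made with Python 3.11.15, pandas 2.3.3 and numpy 2.4.6, and figures with matplotlib 3.10.9. Depth was estimated from steps between low values, of which 81.6% to 86.6% lay within 0.15 of a whole multiple of a step fitted on the same values.

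The genes, classes and further lists were chosen with earlier results of these data known. All 39 are named. Values in every library are given, in each class, for the called members with the largest rise and the largest fall and for the most abundant member. In each further list up to 2 called genes with the largest rise and up to 2 with the largest fall are named. Alternatives were a pseudocount of 0.1, no filter, no variance trend, median-ratio scaling, rescaling to TPM, quantile normalization, a replicate block and leaving out each library.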

Additional observations from a re-analysis of the deposited data

How the results depend on the processing

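Under median-ratio scaling 23 members were lower and 2 higher, and after rescaling to TPM 9 were lower and 17 higher. The higher calls were 4 without a filter and 4 without the variance trend. Leaving out 1 library gave 13 to 14 lower and 4 to 9 higher calls and a median over the 39 of −0.0633 to −0.0304, which was −0.20 under median-ratio scaling and 0.19 after rescaling to TPM. Class medians under median-ratio scaling and after rescaling to TPM were −0.46 and −0.072 for mitotic entry (−0.23 under quantile normalization), −0.52 and −0.14 for the Polo, Aurora A and NEK2 kinases, −0.52 and −0.13 for the passenger complex (−0.24 under quantile normalization), −0.19 and 0.20 for the checkpoint, 0.0377 and 0.42 for the outer kinetochore, −0.13 and 0.26 for the motors, −0.084 and 0.31 for the central spindle and −0.56 and −0.17 for anaphase onset. With 1 library left out, the passenger complex ran from −0.36 to −0.32 and the checkpoint from −0.0012 to 0.0622.

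Members turned sign as follows. After rescaling to TPM, Ccna2 was 0.18, Ccnb2 0.091, Nek2 0.12, Bub3 0.20, Ttk 0.19, Kif2c 0.19, Tpx2 0.19, Kif20a 0.13, Prc1 0.21 and Top2a 0.12. Under median-ratio scaling, Cdc25c was −0.16, Mad2l1 −0.11, Cenpe −0.0338, Spc24 −0.0196, Kif11 −0.0647 and Kif23 −0.0841, and Cdca8, the only one of these called as deposited, was −0.0184. Under quantile normalization, Ccna2 was 0.0245, Cdc25c −0.23, Bub3 0.0252, Cenpe −0.0407, Tpx2 0.0203, Prc1 0.0342 and Top2a 0.19. With 1 library left out, Cdc25c ran from −0.0753 to 0.0677, Bub3 from −0.0438 to 0.037, Ttk from −0.12 to 0.0622, Cenpe from −0.14 to 0.36, Kif11 from −0.0366 to 0.19, Kif2c from −0.0629 to 0.0269 and Prc1 from −0.0633 to 0.0542. The causes were not tested.

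Same-numbered libraries of the 2 groups did not clearly deviate together (correlations of −0.001, 0.016 and 0.086), although the last value was the highest of all pairs. Such correlations cannot tell whether same-numbered libraries were prepared together. With a replicate block 14 members were lower and 8 higher: Cdca8 was lost (adjusted p = 0.0595), and Cenpf (0.0475) and Spc24 (0.0487) were gained. The member with the lowest mean level, Cdc25b, was at 9.36 FPKM in Max-KO libraries. The 95% intervals of Cenpf and Cenpe were wide, and WT 3 was the lowest library for both.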
